A study of Mus musculus with 12 samples.

Results

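The nuclear-encoded subunits of the mitochondrial respiratory chain were followed across mouse livers that overexpressed an active form of YAP or the transcription factor MYC. Members were chosen by symbol: the Nduf genes of complex I (series a, b, c, s and v), the Sdh genes of complex II, the Uqcr genes of complex III, Cycs, the Cox4 to Cox8 genes of complex IV and the Atp5 genes of complex V. Of 91 matching symbols, 6 were pseudogenes, and 83 of the other 85 held at least 10 counts over the 12 libraries. These 83 members, of 48576 gene lines in all, comprised 37 genes of complex I, 4 of complex II, 8 of complex III, cytochrome c, 16 of complex IV and 17 of complex V. The testis isoforms Cox7b2 and Cox8c had no counts in any library. The 17 Atp5 genes included Atp5s and Atp5sl, which carry the symbol but are not subunits of the enzyme. Complexes were assigned by symbol alone, which does not show that each Nduf gene, such as Ndufa4 or Ndufa4l2, is a complex I subunit.

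Total liver RNA of 5 groups of mice was sequenced. The YAP groups carried Col-TRE-YAPS127A; Rosa26-LSL-rtTA and had received AAV-TBG-Cre at 8 to 10 weeks of age, the virus that switches on rtTA in hepatocytes. YAPS127A, which escapes an inhibitory phosphorylation, was not induced (YAP control, n = 2), or was induced with doxycycline for 2 weeks (n = 2) or 4 weeks (n = 3). MYC livers (n = 3) carried LAP-tTA; TRE-MYC, a pair that switches MYC on when doxycycline is withdrawn, here from pregnant mothers near embryonic day 8, and were collected at 4 weeks after birth. MYC controls (n = 2) carried LAP-tTA alone, with doxycycline on the same schedule. Both transgenes act in liver parenchyma, through the hepatocyte TBG promoter or the liver LAP promoter, in mice whose other liver cells remain. The labels do not say that replicates were separate animals, so p-values measure the spread between these libraries.

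The libraries held between 12511170 and 17690798 counts, of which the 83 members took between 82440 and 189913. Hepatocytes are the labelled cell type, but RNA came from whole liver, and beside hepatocyte markers (summed 32920 to 114100 CPM, counts scaled to a common library size) all libraries held endothelial (83.4 to 404 CPM) and macrophage markers (183 to 1366 CPM). Bulk RNA cannot tell apart fewer hepatocytes and less RNA of a gene per hepatocyte. By Xist and Y-linked genes, 2-week YAP replicate 2 and all 4-week YAP libraries had a female pattern and the other 8 libraries a male one, so sex pattern and induction cannot be told apart at 4 weeks.

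The respiratory chain sits in the inner mitochondrial membrane. Complexes I and II pass electrons from NADH and succinate to ubiquinone, complex III passes them on to cytochrome c, and complex IV hands them to oxygen. Complexes I, III and IV pump protons as they do so, and complex V, the ATP synthase, uses the returning protons to make ATP. Complex II is encoded wholly in the nucleus, while the other complexes mix nuclear subunits with a few made in the mitochondrion itself. Hepatocytes are rich in mitochondria, and several subunits of complex IV exist in a form found in liver and most tissues and another found mainly in heart and skeletal muscle.

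Levels per kilobase used all annotated exon bases of a gene, merged over its transcripts. That length can exceed the length of a single transcript, so orders between genes and complexes depend on the annotation. By this measure the highest members in YAP control livers were Cox6a1, at 722 CPM per kb, Cox8a, at 536, and Atp5a1, at 415. Cox6a1 and Cox8a are the widespread forms of complex IV subunits, and Atp5a1 is the alpha subunit of the ATP synthase. Cox6a1 was also the highest complex IV gene per kilobase in the 4 other groups, and Atp5a1 the highest of complex V. The median level per kilobase in YAP control livers was 52.3 CPM per kb in complex I, 106 in complex II, 74.2 in complex III, 66.1 in complex IV and 68.4 in complex V. After 4 weeks of YAP induction the complex III median was 30.7 CPM per kb and that of complex V 30.0.

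In livers with YAP induced for 2 weeks, subunits of all 5 complexes and cytochrome c were lower than in YAP control livers. Of 82 members with enough counts for the test, 66 fell, 3 rose and 13 did not pass, where 12.7% of all 17964 tested genes fell and 15.1% rose, 27.8% in all. A call is an adjusted p under 0.05 in edgeR's quasi-likelihood test, with libraries scaled by trimmed mean of M values (TMM), which holds the typical gene constant. The median member was at a log2 fold change of -1.03, and the median of all tested genes at 0.10. Of the 66 members called lower, 42 were at least 2-fold lower, a count made for members only. Values of the 2-week and YAP control libraries did not overlap, with the 2-week values lower, for 74 members, against 30% of all tested genes. Cox4i2, an isoform with 32 counts in all 12 libraries, was not tested.

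After 4 weeks of induction 74 of 82 members had fallen, 1 had risen and 7 did not pass, against 15.7% of all tested genes lower and 18.1% higher, 33.8% in all. The median log2 fold change was -1.14 for the members and 0.18 for all tested genes. Of the 74 members called lower, 57 were at least 2-fold lower, again counted for members only. Libraries did not overlap, with the 4-week values lower, for 74 members, against 26.4% of all tested genes. Both YAP times were set against the same 2 control livers. Between 4 and 2 weeks no member was called, where 0.0612% of all tested genes were. In that comparison 3 members had an unadjusted edgeR p under 0.05 (Cox6a2, Cox8b and Ndufa3), and DESeq2 called 1.

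**Figure D1:**
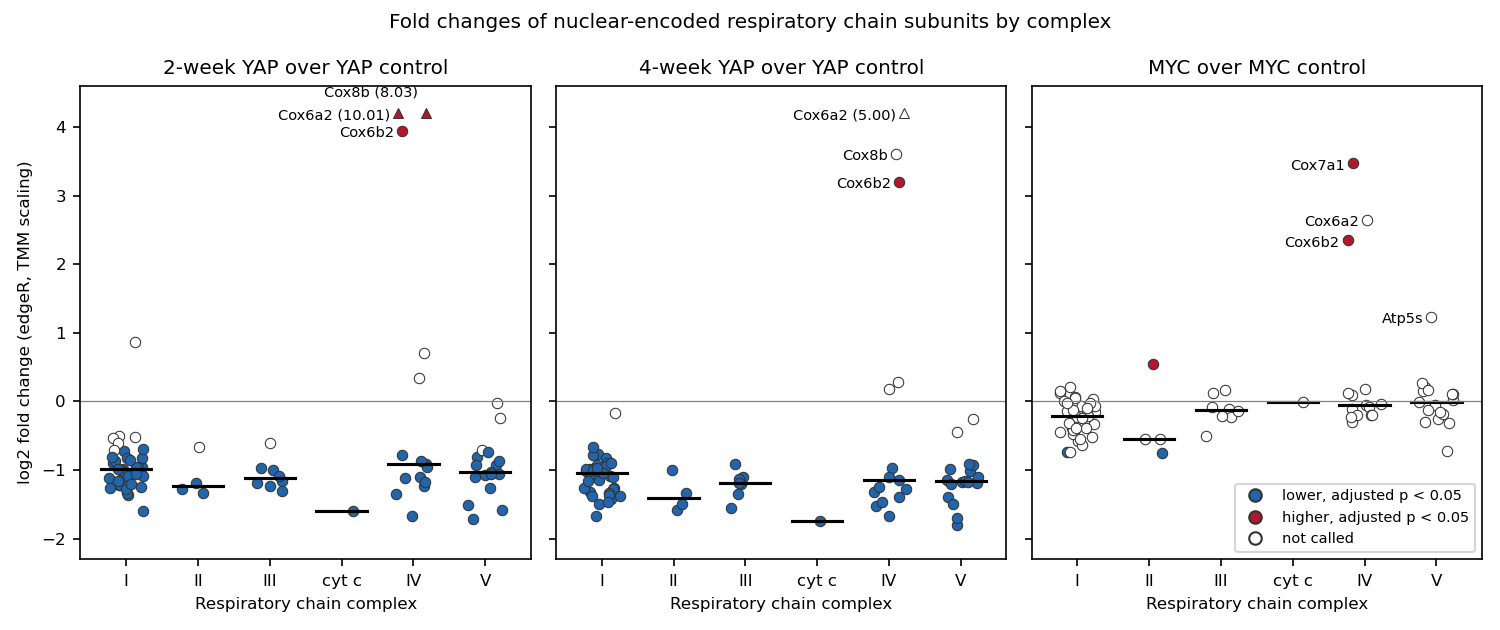
Log2 fold changes (edgeR, TMM scaling) of the 82 tested members, by complex, in 2-week YAP over YAP control, 4-week YAP over YAP control and MYC over MYC control livers. Blue points are called lower, red points higher, white points were not called, bars are medians, and triangles mark values above the axis with the value written beside them. Nearly all members lie near -1 at both YAP times, with 66 and 74 called lower, and near 0 in MYC livers, where 2 are called lower and 3 higher.

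Cytochrome c showed one of the deepest falls. Cycs, the mobile carrier between complexes III and IV, had 97.4 and 106 CPM in YAP control livers, 30.5 and 37.1 CPM at 2 weeks and 39.5, 24.6 and 27.1 CPM at 4 weeks. Every induced library was below both controls. The log2 fold change was -1.59 ± 0.23 (SE) at 2 weeks (adjusted p = 0.000774) and -1.75 ± 0.20 at 4 weeks (adjusted p = 0.000191). Cyc1, the cytochrome c1 of complex III, which the symbol rule leaves out, fell by a like amount, -1.39 ± 0.24 at 2 weeks and -1.54 ± 0.22 at 4 weeks. GENCODE lists 3 Cycs pseudogenes at 95% identity or more, with which reads may be shared.

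Complex I, the entry point for electrons from NADH, had 31 of 37 members lower at 2 weeks and 36 of 37 at 4 weeks, with median log2 fold changes of -0.99 and -1.04. All 7 core subunits, which hold the flavin and iron-sulfur centres and the quinone site, fell at both times. Among the 30 other Nduf genes, placed in complex I by symbol alone, 24 fell at 2 weeks and 29 at 4 weeks. Ndufv1, the flavoprotein that takes electrons from NADH, had 124 and 97.9 CPM in YAP control livers, 52.7 and 54.0 at 2 weeks, and 63.3, 42.8 and 42.2 at 4 weeks. Its log2 fold change was -1.06 ± 0.23 at 2 weeks (adjusted p = 0.00665) and -1.17 ± 0.21 at 4 weeks (adjusted p = 0.00176). Ndufs1, an iron-sulfur subunit of the same arm, followed at -0.96 ± 0.19 and -1.06 ± 0.17.

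The largest fall in complex I was that of Ndufb9, an accessory subunit of the membrane arm. Ndufb9 had 223 and 214 CPM in YAP control livers, 83.5 and 60.3 at 2 weeks, and 81.8, 61.5 and 62.2 at 4 weeks. The induced libraries lay far below the controls, with log2 fold changes of -1.6 ± 0.23 (adjusted p = 0.000693) and -1.67 ± 0.20 (adjusted p = 0.00022). Ndufa4l2, a relative of Ndufa4 induced by hypoxia in other cells, was the complex I symbol not called at either time. It stayed between 0.676 and 2.21 CPM in all 12 libraries, and its exons overlap those of Shmt2, an enzyme of one-carbon metabolism.

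Complex II feeds electrons from succinate into the chain and is also an enzyme of the citric acid cycle. Sdha, the flavoprotein that oxidises succinate, had 525 and 474 CPM in YAP control livers, 220 and 175 at 2 weeks, and 193, 176 and 162 at 4 weeks. The falls were -1.34 ± 0.22 (adjusted p = 0.00152) and -1.5 ± 0.20 (adjusted p = 0.000343) on the log2 scale. Sdhb, its iron-sulfur partner, had 209 and 208 CPM in YAP control livers, 110 and 72.4 at 2 weeks and 87.1, 60.2 and 62.2 at 4 weeks. It fell by 1.19 ± 0.30 and 1.58 ± 0.27 on the log2 scale. The 2 membrane anchors differed at 2 weeks: Sdhd fell by 1.28 ± 0.18 (adjusted p = 0.000578), while Sdhc was at -0.67 ± 0.26 and did not pass (adjusted p = 0.0753). At 4 weeks both had fallen, Sdhd by 1.33 ± 0.16 and Sdhc by 1.00 ± 0.23.

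Complex III passes electrons from ubiquinol to cytochrome c. Of its 8 members 7 fell at 2 weeks and 8 at 4 weeks, with medians of -1.12 and -1.18. Uqcrfs1, the Rieske iron-sulfur protein, had 78.3 and 74.8 CPM in YAP control livers, 38.2 and 34.1 at 2 weeks and 40.7, 32.2 and 31.7 at 4 weeks. The induced values formed a narrow band, with falls of 1.08 ± 0.18 (adjusted p = 0.0014) and 1.13 ± 0.16 (adjusted p = 0.000449) on the log2 scale. The small accessory subunit Uqcr11 had the largest fall of complex III, -1.30 ± 0.19 at 2 weeks and -1.56 ± 0.17 at 4 weeks. Uqcr10, another small subunit, was the member that did not pass at 2 weeks, at -0.61 ± 0.28 (adjusted p = 0.12).

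Complex IV, cytochrome c oxidase, split into 2 parts. The 10 members Cox4i1, Cox5a, Cox5b, Cox6a1, Cox6b1, Cox6c, Cox7a2, Cox7b, Cox7c and Cox8a fell at both times. Cox7a2, the liver form of subunit VIIa, had 206 and 180 CPM in YAP control livers, 64.7 and 56.0 at 2 weeks, and 66.7, 60.2 and 54.1 at 4 weeks. It fell by 1.68 ± 0.23 at 2 weeks (adjusted p = 0.000604) and by 1.68 ± 0.20 at 4 weeks (adjusted p = 0.000241) on the log2 scale. Cox4i1, the widespread form of a regulatory subunit, fell less, by 0.91 ± 0.18 and 1.11 ± 0.16. The 3 members that rose at 2 weeks, Cox6a2, Cox8b and Cox6b2, are isoforms of muscle or testis and are described with the isoform pairs.

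Cox7a2l, also known as a supercomplex assembly factor, did not fall with Cox7a2. It had 46.5 and 45.2 CPM in YAP control livers, 55.3 and 60.3 at 2 weeks, and 58.9, 47.8 and 49.7 at 4 weeks. All 5 induced libraries were above both controls, but the log2 fold changes, 0.34 ± 0.20 and 0.19 ± 0.18, did not pass (adjusted p = 0.222 and 0.449). In counts, Cox7a2l stood at 96.7 ± 15.7 per 100 Cox7a2 counts at 2 weeks (SD, n = 2) and 86.5 ± 6.41 at 4 weeks (n = 3), against 23.9 ± 1.83 in YAP control livers (n = 2). The exact two-sided permutation p at 4 weeks was 0.1, the smallest that 3 against 2 libraries allow, or 0.4 adjusted over the 24 ratio tests made. One Cox7a2l pseudogene reaches 95% identity. With libraries scaled by total counts, Cox7a2l was called higher at both times, at 0.875 and 0.915 on the log2 scale. With that scaling the median of all tested genes was itself 0.64 and 0.91, and 29.1% and 43.7% of them were called higher.

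Complex V, the ATP synthase, had 14 of 17 members lower at 2 weeks and 15 at 4 weeks, with medians of -1.03 and -1.16. Atp5b, the catalytic beta subunit, had 943 and 879 CPM in YAP control livers, 602 and 492 at 2 weeks, and 542, 436 and 405 at 4 weeks. Its fall of 0.74 ± 0.23 at 2 weeks (adjusted p = 0.0359) and 0.98 ± 0.21 at 4 weeks was among the smaller ones of the complex. The largest were in small membrane subunits. Atp5k, subunit e, had 145 and 173 CPM in YAP control livers, 54.1 and 52.2 at 2 weeks and 50.9, 42.3 and 43.6 at 4 weeks. It fell by 1.58 ± 0.19 (adjusted p = 0.000266) and 1.80 ± 0.17 (adjusted p = 5.88e-05) on the log2 scale. Atp5j2, subunit f, fell by 1.71 ± 0.17 and 1.5 ± 0.15.

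The c-ring of the ATP synthase is built from 1 protein encoded by 3 genes, and these 3 did not move together. Atp5g1 had 92.9 and 101 CPM in YAP control livers, 37.1 and 30.9 at 2 weeks and 34.2, 29.5 and 26.0 at 4 weeks, with falls of 1.52 ± 0.18 and 1.70 ± 0.16 on the log2 scale. Atp5g3 fell by 1.10 ± 0.19 and 1.17 ± 0.17. Atp5g2 was at -0.03 ± 0.27 at 2 weeks (adjusted p = 0.956) and -0.44 ± 0.25 at 4 weeks (adjusted p = 0.188), with 36.8 and 31.3 CPM at 2 weeks against 39.5 and 29.8 in YAP control livers. Atp5g1 took 22.8 ± 1.97 of 100 c-ring counts at 4 weeks (SD, n = 3), against 32.1 ± 1.83 in YAP control livers (n = 2). Atp5g2 took 19.3 ± 2.84 at 4 weeks, against 11.5 ± 2.32 in YAP control livers. The exact permutation p was 0.1 for the first share and 0.2 for the second, each 0.4 adjusted over the 24 ratio tests. Atp5s, the coupling factor B protein, was not called at either time either.

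**Figure D2:**
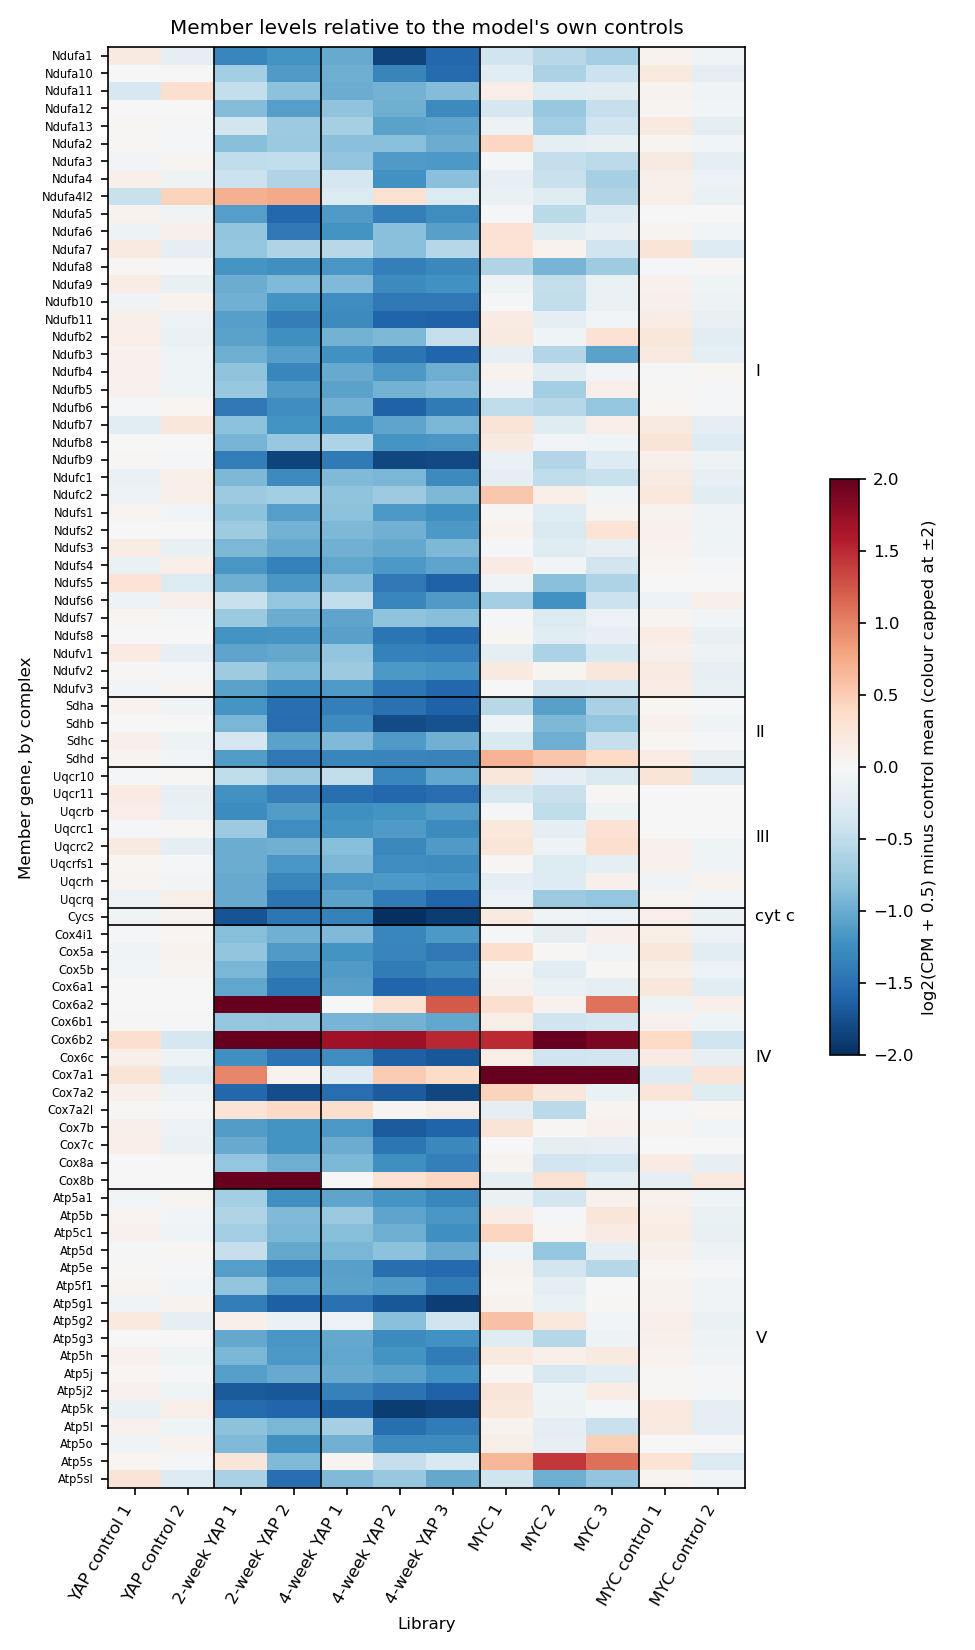
Levels of the 82 tested members in each library, as log2(CPM + 0.5) minus the mean of the same model's 2 control libraries, with rows grouped by complex and colours capped at 2 in either direction. Blue fills the 5 YAP-induced columns except in rows such as Cox7a2l, Atp5g2 and Cox6b2, the MYC columns are pale, and Cox7a1 is deep red in the 3 MYC libraries.

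In MYC livers most members were not called. Of 82 members 3 rose, 2 fell and 77 did not pass, where 9.76% of all tested genes rose and 8.56% fell, 18.3% in all, so the share called was below the background. The median log2 fold change was -0.12, against 0.02 for all tested genes, and no member was 2-fold lower. The library values of 22 members lay wholly below MYC controls, against 26.2% of all tested genes. Complexes III and V and cytochrome c had no call. The 5 calls were Cox7a1, Cox6b2 and Sdhd higher, and Ndufa8 and Sdha lower.

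Cox7a1, the heart and muscle form of subunit VIIa, had 6.25, 6.80 and 9.0 CPM in MYC livers and 0.442 and 0.858 CPM in MYC controls. All 3 MYC libraries were above every other library of the series, and the log2 fold change was 3.47 ± 0.55 (adjusted p = 0.00226). The call held under all 13 alternatives, with adjusted p up to 0.041. Cox7a2, the liver form, had 203, 174 and 136 CPM in MYC livers and 177 and 125 in MYC controls, at 0.18 ± 0.21 (adjusted p = 0.598). Cox7a1 therefore remained a small part of the pair, 4.32 ± 1.67 per 100 counts of both genes in MYC livers (SD, n = 3) and 0.465 ± 0.305 in MYC controls (n = 2, exact permutation p = 0.1, or 0.4 adjusted over 24 ratio tests). The gene lies at chr7:30184144-30186078 (GRCm38, plus strand) and overlaps no other annotated exon.

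Within complex II the MYC livers showed opposite changes of single subunits. Sdhd had 184, 167 and 149 CPM in MYC livers and 125 and 103 in MYC controls, without overlap, at 0.55 ± 0.16 (adjusted p = 0.0361). Sdha had 328, 228 and 307 CPM in MYC livers and 496 and 470 in MYC controls, also without overlap, at -0.75 ± 0.20 (adjusted p = 0.0233). Sdhb and Sdhc were both at -0.55 and did not pass (adjusted p = 0.18 and 0.122). For each 100 Sdha counts there were 56.0, 73.5 and 48.7 Sdhd counts in MYC livers, against 25.3 and 21.9 in MYC controls and between 28.7 and 35.2 in the 7 libraries of the YAP model. This ratio does not depend on the scaling of libraries. Its means were 59.4 ± 12.7 in MYC livers (SD, n = 3) and 23.6 ± 2.42 in MYC controls (n = 2), with an exact permutation p of 0.1, the smallest possible, or 0.4 adjusted over the 24 ratio tests.

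Both calls depend on the settings. Sdhd lost its call in 7 of 13 alternatives, with adjusted p up to 0.282, among them leaving out MYC replicate 1 or 2 or either MYC control. Sdha lost its call in 7, up to 0.186, among them leaving out MYC replicate 2 or either MYC control. With total-count scaling Sdhd stood at 0.955 and stayed called, while Sdha stood at -0.34 and did not pass. Neither gene overlaps another annotated exon or has a pseudogene at 95% identity. Sdhd lies at chr9:50596357-50603812 and Sdha at chr13:74322254-74350280, both on the minus strand of GRCm38.

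**Figure D3:**
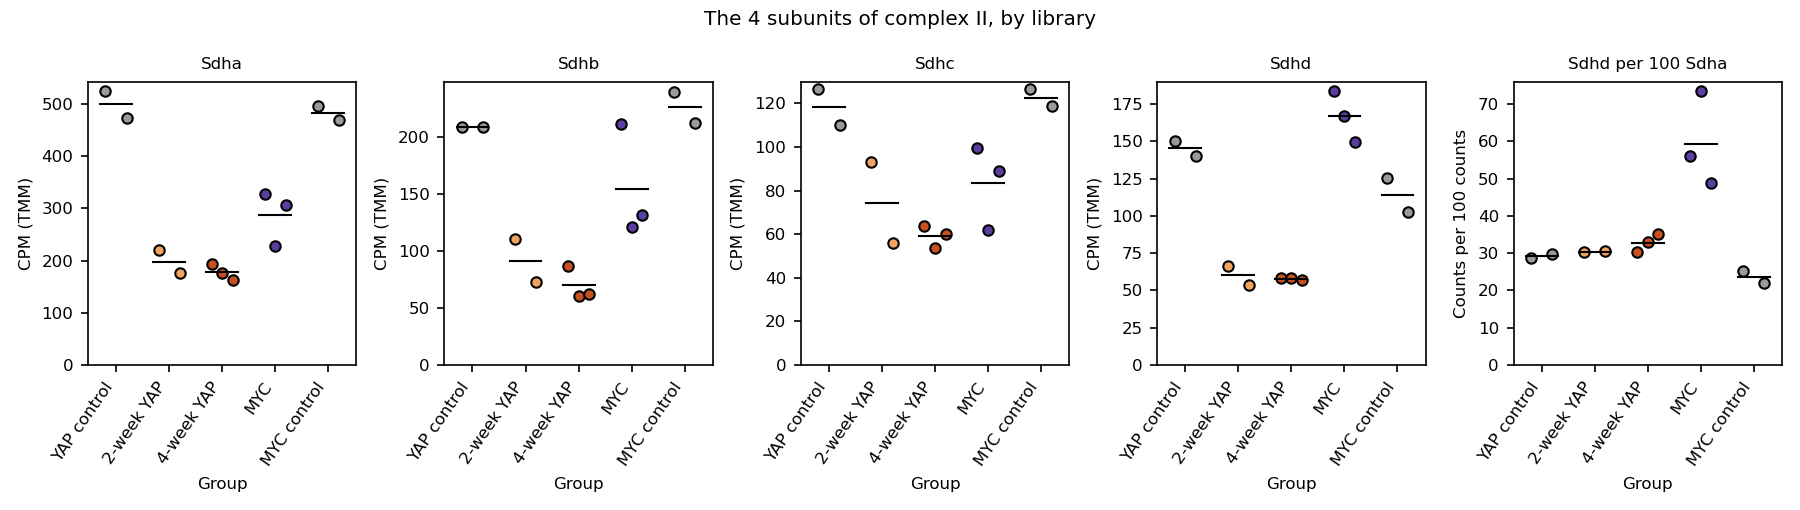
CPM of Sdha, Sdhb, Sdhc and Sdhd in each library (points; lines are group means) and, in the last panel, Sdhd counts per 100 Sdha counts. All 4 subunits are low in the YAP-induced libraries, and the 3 MYC libraries stand at 48.7 or more in the ratio, where no other library exceeds 35.2.

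Ndufa8, an accessory subunit of complex I, had 62.0, 49.4 and 57.6 CPM in MYC livers and 93.3 and 95.4 in MYC controls. Its log2 fold change of -0.74 ± 0.14 passed (adjusted p = 0.00495) but lost its call with total-count scaling, at -0.339, with mitochondrially encoded genes left out of the total, and without MYC control replicate 2. Ndufa8 also fell at both YAP times, by 1.21 ± 0.15 and 1.28 ± 0.14 on the log2 scale.

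The muscle and testis isoforms of complex IV moved apart from the rest. Cox6a2, the heart and muscle form of subunit VIa, had no counts in YAP control livers, 9.28 and 8.49 CPM at 2 weeks, and 0, 0.115 and 0.667 CPM at 4 weeks. With a floor of 3 counts over both YAP control libraries together, it was at least 58.3-fold higher at 2 weeks (adjusted p = 0.00483). Cox8b, the muscle form of subunit VIII, also had no counts in YAP control livers, 2.69 and 1.79 CPM at 2 weeks, and at most 0.167 CPM at 4 weeks. With the same floor it was at least 14.5-fold higher at 2 weeks (adjusted p = 0.0193), but the call was lost when any of the 4 libraries of that comparison was left out, with adjusted p between 0.0574 and 0.0934. Cox6a1 and Cox8a, their liver counterparts, fell at the same time by 1.23 ± 0.25 and 0.87 ± 0.23 on the log2 scale.

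Skeletal muscle transcripts moved with these 2 isoforms. The summed level of 10 skeletal muscle markers, myosin heavy chains, creatine kinase and the calcium pump of fast fibres among them, was 469 and 511 CPM at 2 weeks, against 1.16 and 1.06 CPM in YAP control livers. It was between 3.24 and 19.6 CPM at 4 weeks and between 0.884 and 20.0 CPM in the MYC model. Summed cardiac markers reached at most 1.2 CPM in any library and summed brown fat markers (Ucp1 and Cidea) at most 0.425 CPM. The part of muscle tissue in the Cox6a2 and Cox8b values was not tested. At 4 weeks 9 of the 10 markers were still at a positive log2 fold change over YAP control livers, with a median of 4.67 and 2 called higher, and neither isoform was called (adjusted p = 0.165 and 0.326).

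Cox6b2, described as a testis form of subunit VIb, was the member that rose in all 3 comparisons with controls. It had 0.290 and 0 CPM in YAP control livers, 2.20 and 2.69 CPM at 2 weeks, and 1.52, 1.55 and 1.28 CPM at 4 weeks. The log2 fold changes were 3.95 ± 0.83 (adjusted p = 0.00544) and 3.20 ± 0.81 (adjusted p = 0.0115). In MYC livers it had 3.4, 6.31 and 4.58 CPM, against 1.33 and 0.546 CPM in MYC controls, at 2.35 ± 0.61 (adjusted p = 0.0229). The part of muscle tissue in the Cox6b2 values was not tested. It stayed a small part of the pair with Cox6b1, at 3.89 ± 1.68 per 100 counts of both in MYC livers (SD, n = 3) and 0.639 ± 0.329 in MYC controls (n = 2). The 2-week call held under all 12 alternatives. The 4-week call was lost in 3 of 13, among them leaving out YAP control replicate 2 (adjusted p = 0.069), and the MYC call in 4 of 13, among them leaving out MYC replicate 2 or either MYC control, at adjusted p up to 0.187.

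**Figure D4:**
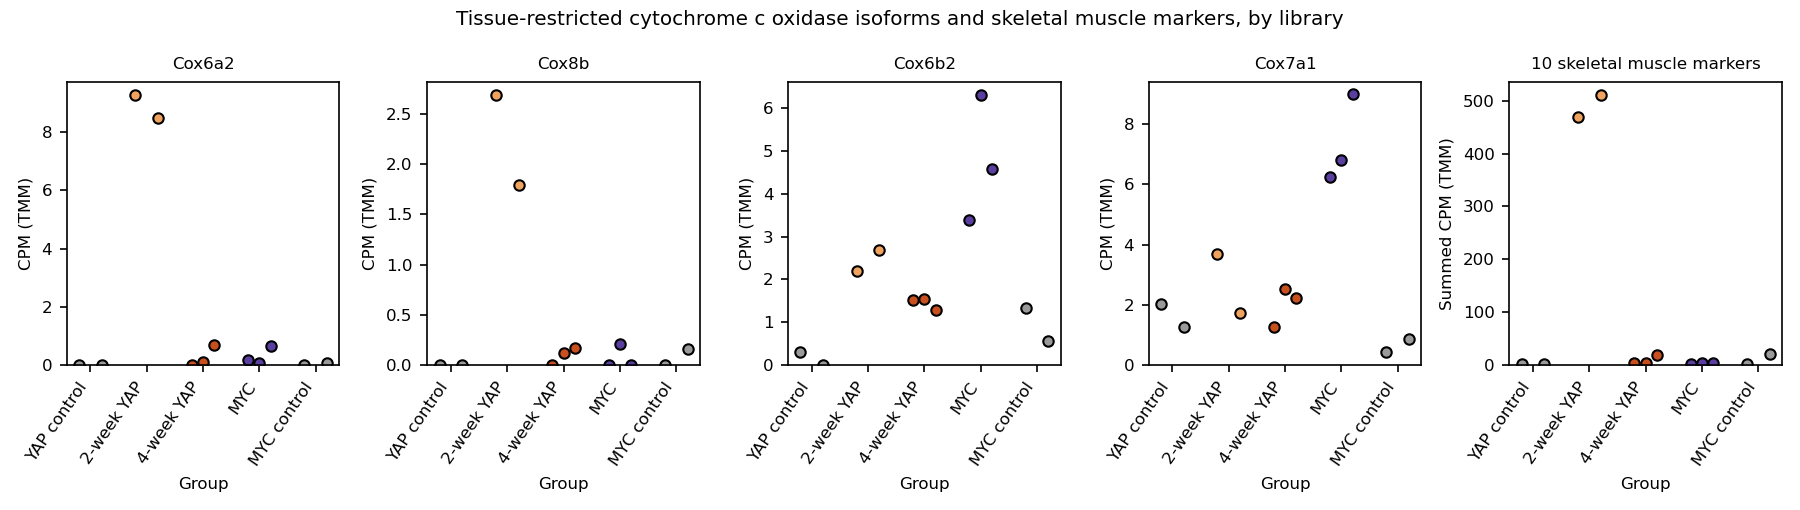
CPM (TMM) of Cox6a2, Cox8b, Cox6b2 and Cox7a1 and the summed CPM of 10 skeletal muscle markers, each point a library. Cox6a2, Cox8b and the muscle markers are highest in both 2-week YAP libraries, while Cox6b2 is highest in MYC livers (3.4 to 6.31 CPM) and Cox7a1 in MYC livers (6.25 to 9.0 CPM).

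The change in MYC livers was set against that after 4 weeks of YAP, each taken from its own controls. The difference was positive, meaning a less negative or more positive change in MYC livers, for 43 of 82 members and negative for none, where 3.15% of all tested genes were called positive and 4.33% negative, 7.48% in all. The median difference was 0.99 for the members and -0.07 for all tested genes. By complex, 15 of 37 members of complex I, 1 of 4 of complex II, 6 of 8 of complex III, cytochrome c, 9 of 15 of complex IV and 11 of 17 of complex V were called. The count depended on single libraries, and so did the 1344 calls over all tested genes. There were 12 member calls among 510 without YAP control replicate 1, 14 among 510 without YAP control replicate 2, and 25 among 808 without 4-week YAP replicate 3. Without MYC control replicate 1 there were 14 among 491, and without MYC control replicate 2 there were 6 among 338. With sex pattern as a covariate, an alternative added after seeing the data, there were 0 among 65. The sex term of that fit rests on the 2-week YAP pair alone, 1 library of each pattern.

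The largest differences were those of Cox7a1, 3.19 ± 0.72 (adjusted p = 0.0221), Sdhd, 1.88 ± 0.23 (adjusted p = 0.00144), Cox7a2, 1.85 ± 0.30 (adjusted p = 0.00495), Atp5k, 1.82 ± 0.24 (adjusted p = 0.00204) and Cycs, 1.74 ± 0.29 (adjusted p = 0.00653). The Cox7a1 difference lost its call without YAP control replicate 1 or either MYC control (adjusted p between 0.0698 and 0.111), and that of Cycs without MYC control replicate 2 (adjusted p = 0.0533). Cycs had 121, 101 and 98.8 CPM in MYC livers and 118 and 98.2 in MYC controls, at -0.01 ± 0.21, while it fell by 1.75 after 4 weeks of YAP. Atp5k had 133, 108 and 112 CPM in MYC livers and 131 and 101 CPM in MYC controls, with overlap.

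Sequence upstream of the start is shown for 4 members that fell at both YAP times, because in MYC livers Sdha fell, Sdhd rose, and Atp5k and Atp5g1 of complex V were not called. The stretches are the 250 bases before the RefSeq start (GRCm38.p6), 5′ to 3′ on the gene's strand, which is minus for all 4. Capitals in the first 3 mark matches to the NRF1 motif (GCGC, any base, then TGCGC), the site of nuclear respiratory factor 1, a regulator of many mitochondrial genes, on either strand. Capitals in Atp5g1 mark the E-box CACGTG, a site bound by MYC family proteins. The regions are chr13:74350241-74350490 for Sdha, chr9:50603850-50604099 for Sdhd, chr5:108434400-108434649 for Atp5k and chr11:96075632-96075881 for Atp5g1.
Sdha: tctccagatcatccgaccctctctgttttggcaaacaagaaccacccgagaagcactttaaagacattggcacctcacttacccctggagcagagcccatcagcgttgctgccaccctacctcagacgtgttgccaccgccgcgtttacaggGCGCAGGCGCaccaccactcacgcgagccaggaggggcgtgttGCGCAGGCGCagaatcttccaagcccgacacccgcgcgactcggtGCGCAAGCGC
Sdhd: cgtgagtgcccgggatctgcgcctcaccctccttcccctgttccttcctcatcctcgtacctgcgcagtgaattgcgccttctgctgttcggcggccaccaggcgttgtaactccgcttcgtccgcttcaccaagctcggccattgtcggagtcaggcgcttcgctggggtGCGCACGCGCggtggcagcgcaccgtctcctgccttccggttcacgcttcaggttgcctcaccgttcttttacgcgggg
Atp5k: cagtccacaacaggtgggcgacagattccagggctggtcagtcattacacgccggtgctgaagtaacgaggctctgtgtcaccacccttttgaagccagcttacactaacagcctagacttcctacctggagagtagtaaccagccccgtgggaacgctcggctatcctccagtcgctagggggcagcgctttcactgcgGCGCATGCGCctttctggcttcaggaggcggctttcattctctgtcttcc
Atp5g1: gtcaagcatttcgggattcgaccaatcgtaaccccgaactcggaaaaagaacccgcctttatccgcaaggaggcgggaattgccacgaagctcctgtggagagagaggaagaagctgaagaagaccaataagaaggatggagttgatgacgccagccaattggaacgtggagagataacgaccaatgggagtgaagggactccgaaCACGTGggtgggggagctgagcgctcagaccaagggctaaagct

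Sdha, with 3 matches to the NRF1 motif in this window, was called lower in MYC livers, while Sdhd, with 1 match 79 bases before the start, was called higher. RefSeq listed a promoter for 69 of the 83 members. Of these, 12 held the NRF1 motif (17.4%), against 3.863% of all 27025 promoters. The E-box was found in 7 members (10.1%, against 6.046% of all), the cyclic AMP response element TGACGTCA in 5 (7.2%, against 1.624%), the GABP motif CCGGAAGT in 3 (4.3%, against 2.931%) and the YY1 motif AANATGGCG in 1 (1.4%, against 1.117%). Both strands were searched for each motif, and a match describes letters only.

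The share of all counts needs no TMM factor, but amounts to scaling by total counts and depends on the other genes of a library. Mitochondrially encoded genes took 19.3% and 19.6% of counts in YAP control livers. They took 13.9% and 10.2% at 2 weeks and 11.65%, 10% and 7.67% at 4 weeks. The 83 members took 0.861% and 0.839% of counts in YAP control livers, 0.618% and 0.607% at 2 weeks, and 0.632%, 0.598% and 0.617% at 4 weeks. All 5 induced libraries were below both controls, by less than the TMM values show. In MYC livers the members took 1.07%, 1.02% and 1.22%, above the 0.949% and 0.864% of MYC controls. Scaled by total counts, 34 members fell and 4 rose at 2 weeks, against 5.45% and 29.1% of all genes, and 34 fell and 2 rose at 4 weeks, against 4.99% and 43.7%. In MYC livers 13 rose and none fell with that scaling, against 18.3% and 4.14% of all genes, and the members' median was 0.29 where TMM gave -0.12.

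Total-count scaling moved the median of all tested genes by 0.53 at 2 weeks, 0.73 at 4 weeks and 0.41 in MYC livers on the log2 scale. Relative to that median, the members' median with TMM was -1.13 at 2 weeks, -1.32 at 4 weeks and -0.14 in MYC livers. A change of scaling moves all genes of a library by the same factor, so these relative values are nearly fixed by construction. The direction of the members' median in MYC livers depends on the scaling.

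**Figure D5:**
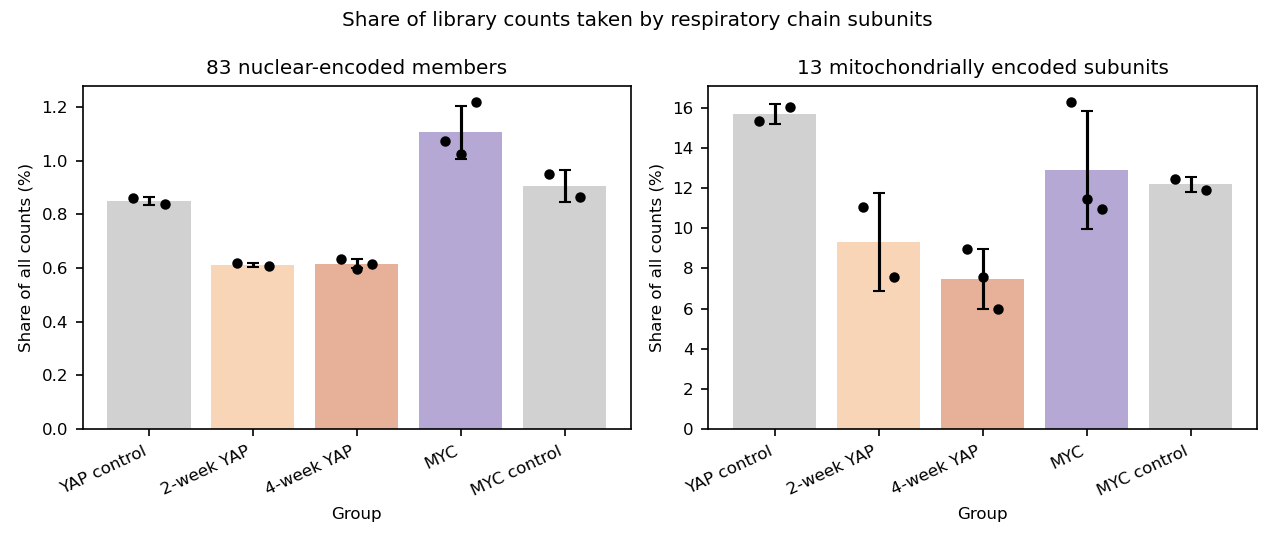
Share of each library's counts taken by the 83 nuclear-encoded members and by the 13 mitochondrially encoded subunits; points are libraries, bars group means, and error bars SD. The nuclear share lies between 0.598% and 0.632% in the 5 YAP-induced libraries and above 1% in the 3 MYC libraries, and the mitochondrially encoded share is lowest at 4 weeks of YAP.

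The 13 subunits encoded in mitochondrial DNA took 15.3% and 16.0% of counts in YAP control livers, 11.04% and 7.57% at 2 weeks and 8.96%, 7.55% and 5.97% at 4 weeks. At 2 weeks 4 of 13 fell and at 4 weeks 12 of 13, against 12.7% and 15.7% of all tested genes. The median log2 fold changes were -1.06 and -1.81, and none rose. mt-Co1, the catalytic subunit of complex IV, had 37070 and 33620 CPM in YAP control livers and 14370, 9324 and 7161 CPM at 4 weeks, a log2 fold change of -1.78 ± 0.35 (adjusted p = 0.0034). In MYC livers the share was 16.3%, 11.4% and 10.98%, against 12.4% and 11.9% in MYC controls. No subunit was called there, where 18.3% of all tested genes were. In these tables mt-Nd3, mt-Nd4l, mt-Co2, mt-Co3, mt-Atp6 and mt-Atp8 stood at 32.6 CPM or less in every library, where the other 7 stood at 2428 CPM or more. Nuclear members stood at 52.4 to 111 counts per 1000 mitochondrially encoded subunit counts over all libraries.

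Genes that build or feed the chain were taken from lists made apart from the symbol rule. Of 12 tested subunits and partners outside the rule, 9 fell at each YAP time, against 12.7% and 15.7% of all tested genes. Among them was Etfdh, which delivers electrons from fatty acid oxidation to ubiquinone, at -1.16 ± 0.25 and -1.21 ± 0.22. Nnt, the proton-driven transhydrogenase that makes NADPH, rose, with 77.2 and 65.0 CPM at 2 weeks and 122, 55 and 74.2 CPM at 4 weeks, against 34.6 and 29.5 CPM in YAP control livers. Its log2 fold changes were 1.15 ± 0.30 (adjusted p = 0.016) and 1.39 ± 0.29 (adjusted p = 0.004).

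Atpif1, the inhibitor that blocks ATP hydrolysis by complex V, rose where the synthase did not. It had 69.4, 132 and 95.7 CPM in MYC livers and 22.6 and 18.4 CPM in MYC controls, at 2.27 ± 0.30 (adjusted p = 0.0011). The call held under all 13 alternatives. At 4 weeks of YAP it rose by 1.12 ± 0.29 (adjusted p = 0.013), with 35.3, 41.0 and 53.3 CPM against 18.8 and 20.8 CPM in YAP control livers, a call lost in 4 of 13 alternatives, among them leaving out either YAP control (adjusted p = 0.0905 and 0.0657). At 2 weeks it was at 0.86 ± 0.31 and did not pass (adjusted p = 0.059).

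Of 45 tested assembly factors 23 fell at 2 weeks, 25 at 4 weeks and 3 in MYC livers, and none rose. Among all tested genes 12.7%, 15.7% and 8.56% fell in the same comparisons. Lrpprc, which stabilises mitochondrial messenger RNA, had 66.4 and 59.9 CPM at 2 weeks, against 189 and 187 CPM in YAP control livers, and fell by 1.57 ± 0.20 on the log2 scale (adjusted p = 0.00035). Ndufaf1, a complex I assembly factor, fell by 1.44 ± 0.25 at 2 weeks and 1.6 ± 0.22 at 4 weeks. Ecsit, of the same assembly complex, fell by 1.40 ± 0.23, 1.70 ± 0.20 and, in MYC livers, 0.73 ± 0.20. With total-count scaling 6 factors fell at 2 weeks, against 5.45% of all tested genes. At 4 weeks 4 fell and 2 rose, against 4.99% and 43.7%. The median of the list was then 0.08 where TMM gave -0.65, and that of all tested genes 0.91 where TMM gave 0.18.

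In the citric acid cycle, which supplies NADH and succinate, 11 of 19 genes fell at 2 weeks and 15 at 4 weeks, and 1 fell in MYC livers. The shares of all tested genes that fell were 12.7%, 15.7% and 8.56%. Fh1, fumarase, fell by 1.38 ± 0.22 and 1.68 ± 0.19 on the log2 scale. Idh2, the NADP-dependent isocitrate dehydrogenase of mitochondria, rose in all 3 comparisons. It had 303 and 240 CPM at 2 weeks, and 322, 134 and 191 CPM at 4 weeks, against 73.7 and 68.2 CPM in YAP control livers, with log2 fold changes of 1.93 ± 0.34 and 1.6 ± 0.32. In MYC livers it had 202, 157 and 193 CPM, against 85.2 and 72.4 CPM in MYC controls, at 1.22 ± 0.31 (adjusted p = 0.02), a call lost in 3 of 13 alternatives, when MYC replicate 3 or either MYC control was left out.

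Of 16 tested regulators of mitochondrial biogenesis, 1 rose and 3 fell at 2 weeks, 2 rose and 3 fell at 4 weeks, and 1 rose and 2 fell in MYC livers. The shares called, 25%, 31.2% and 18.8%, were near those of all tested genes, 27.8%, 33.8% and 18.3%. Ppara, the nuclear receptor of fatty acid oxidation, fell in all 3, by 1.26 ± 0.27, 1.35 ± 0.23 and 1.34 ± 0.23 on the log2 scale. Nrf1 had 20.5, 29.9 and 22.1 CPM in MYC livers and 13.3 and 12.4 CPM in MYC controls, a rise of 0.91 ± 0.22 (adjusted p = 0.017). It also rose at 4 weeks of YAP, by 0.74 ± 0.22 (adjusted p = 0.025). The MYC call was lost in 4 of 13 alternatives, among them leaving out MYC replicate 2 or either MYC control, and the 4-week call in 5 of 13, among them leaving out either YAP control or 4-week YAP replicate 3. Tfam, which packages and transcribes mitochondrial DNA, fell by 0.66 at both YAP times. With total-count scaling it stood at 0.07 at 4 weeks, where the median of all tested genes was 0.91. Ppargc1a, the coactivator of biogenesis, was not called in any of the 3 comparisons, and Ppargc1b fell at both YAP times.

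Levels of other cell types moved with the YAP comparison. The summed level of 6 hepatocyte markers was 91770 and 73450 CPM at 2 weeks, and 75760, 38750 and 37090 CPM at 4 weeks, against 94950 and 81160 CPM in YAP control livers. In MYC livers it was 56060, 44880 and 32920 CPM, against 114100 and 109300 CPM in MYC controls. The median log2 fold change of the 6 markers was -0.80 at 2 weeks, -1.13 at 4 weeks and -0.98 in MYC livers. Among them 2, 4 and 3 were called lower, where 12.7%, 15.7% and 8.56% of all tested genes were. The members' medians in these comparisons were -1.03, -1.14 and -0.12, the last of these 0.29 with total-count scaling. The 5 cholangiocyte markers summed to 563 and 1180 CPM at 2 weeks and to 396, 3010 and 3074 CPM at 4 weeks, against 105 and 116 CPM in YAP control livers. The 8 macrophage markers summed to 1366 and 1031 CPM at 2 weeks and to 812, 456 and 422 CPM at 4 weeks, against 198 and 183 CPM in YAP control livers. The part of cell composition in the members' fall was not tested.

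The fall in YAP livers was also measured with sex pattern taken into account. Without 2-week replicate 2, the members' median log2 fold change at 2 weeks was -0.90. That comparison holds male-pattern libraries, but its 2-week arm is 1 library, assumed to vary like the libraries of the other groups. A fit with sex pattern as a covariate was added after seeing the data. Only the 2-week group holds both patterns, so the sex term compares 1 library with 1. The 2-week estimate then rests again on replicate 1 and is no separate check. At 4 weeks, after subtracting that term, 4 members fell, Atp5k, Cycs, Atp5j2 and Atp5g1, among 240 calls over all genes. The members' median there was -0.91. These 4 genes kept their call at both YAP times under every alternative run, but the fit that picked them is among those alternatives. Other members that kept their call in the remaining alternatives were not counted, so this does not set the 4 apart.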

How the data were processed

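Each deposited table holds raw read counts per gene symbol for 1 library, made by the authors; per the submitters' processing notes, the tools were featureCounts 1.6.3, HISAT2 2.1.0, Trim Galore 0.4.1 and DESeq2 1.20.0, on GRCm38. Annotation release, strand and the treatment of multi-mapping reads are not given in the sources used here. Libraries used a Nugen Ovation kit, per the labels' protocols. All 12 libraries were fitted together with edgeR 4.0.16 in R 4.3.3 (filterByExpr, TMM, 1 mean per group, 7 residual degrees of freedom, biological coefficient of variation 31.5%), and p-values were adjusted by Benjamini-Hochberg over 17964 genes. Alternatives were DESeq2 1.42.0, 3 other scalings, no filter, each model alone, a replicate block and leaving out each library. The method was tested on simulated data. Replicate pairs differed by 11.2 to 107 in chi-square per degree of freedom. Floors of 3 counts over a group cover counting error only.

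Members and lists were chosen with earlier results of these data known. Named members were a fixed set of landmark and isoform genes, the largest fall and rise per complex and comparison, members called against the majority, the 5 largest differences between effects, and the 4 smallest p per outside list. Coordinates, pseudogene copies (18 members) and exon overlaps (28 members, which unstranded counting cannot tell apart) come from GENCODE vM21, which matched 81 of 83 symbols.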

Additional observations from a re-analysis of the deposited data

Results flagged for a closer look

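The response of the respiratory chain differed between the 2 models in a direct test. Setting the change in MYC livers against that after 4 weeks of YAP, 43 of 82 members were called, where 7.48% of all tested genes were. The same test singled out Cox7a1 at 3.19, Sdhd at 1.88, Cox7a2 at 1.85, Atp5k at 1.82 and Cycs at 1.74 on the log2 scale. For Cox7a1 the change was in MYC livers, for Sdhd it had opposite signs in the 2 models, and for Cox7a2, Atp5k and Cycs it was the fall in YAP livers. The models differ in driver, age, induction time and the sex pattern of the libraries, which cannot be told apart from the difference. No group reached the 4 samples needed to look for a library far from the others.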

How the results depend on the processing

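Scaling by total counts gave 38 member calls at 2 weeks (median -0.50), 36 at 4 weeks (-0.41), 13 in MYC livers (0.29, reversed), 0 between the YAP times (0.025, reversed) and 25 in the difference between effects (0.67). Calls over all 17964 tested genes were then 6201, 8753, 4022, 3 and 1528. Leaving mitochondrially encoded genes out of the total gave 18 calls in MYC livers (0.32, reversed) and medians of -0.63, -0.57 and -0.0099 at 2 weeks, 4 weeks and between the times. Those 18 were all higher, where 3883 of all tested genes were called higher and 713 lower. The outside lists (53, 69, 9, 0 and 16 calls in that order of comparisons) had 27 and 37 calls in YAP livers and 7 in the difference with total counts, and 30 at 2 weeks and 14 in MYC livers without mitochondrial genes. Single genes reversed at 4 weeks with these scalings were Higd2a (0.15), Ttc19 (0.20 and 0.031), Tfam (0.069) and Yy1 (0.59 and 0.43), and Atp5g1 in MYC livers (0.42). With total counts the median of all tested genes at 4 weeks was 0.91. With the sex covariate, members had 43, 4 and 0 calls at 2 weeks, 4 weeks and in the difference (medians -0.91 and 0.80 in the last 2), lists 27, 1 and 0, and Ppargc1b at 4 weeks was at 0.057.

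Replicate numbers gave no sign of pairing: over 8 pairs of same-numbered libraries, deviations correlated between -0.032 and 0.082. In a group of 2 the deviations mirror each other, so the 8 pairs are not independent checks and cannot exclude pairing. With a replicate block, member calls were 2 in MYC livers and 8 in the difference, and list calls 4 and 2. Calls over all genes were then 1514 and 308. Within the MYC model alone there were 3 member calls, among 3010 over all genes. No filter and DESeq2 each gave 1 member call between the YAP times, among 42 and 77 over all genes. DESeq2 gave 29 list calls in the difference, among 2358. Leaving out 1 library gave 42 to 62 member calls at 2 weeks, 65 to 74 at 4 weeks, 1 to 9 in MYC livers, 0 to 1 between the times and 6 to 52 in the difference. For the lists these were 26 to 38, 47 to 73, 2 to 15, 0 to 3 and 0 to 25. The MYC count of 5 was 9 without MYC replicate 1, 2 without MYC replicate 2 or MYC control replicate 1, and 1 without MYC control replicate 2. Calls over all tested genes moved too. In MYC livers they were 3291 in the full fit and 4192, 1683 and 2264 without MYC replicate 1, 2 or 3. At 4 weeks they were 6073 in the full fit and 6231, 5084 and 4430 without 4-week YAP replicate 1, 2 or 3. Leaving out a library of a group of 2 leaves 1 library in that group. Fewer libraries lower the power of the test, and other causes were not tested.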
